A study of Arabidopsis thaliana with 2 samples.

Results

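The alpha and beta tubulin genes of Arabidopsis thaliana were examined in hypocotyls, the stem between root and seed leaves. A gene was included when a probe set annotated to it alone carried the symbol TUA (alpha) or TUB (beta) followed by a number. This rule took 7 of the 13513 probe sets of the ATH1 array that the annotation used here, which is partial, gave to 1 gene. These 7 were 2 for alpha tubulins (TUA1 and TUA6) and 5 for beta tubulins (TUB1, TUB5, TUB6, TUB7 and TUB9). RNA from 2 hypocotyl samples, called sample 2 and sample 1 here, was hybridised to an array each, and both were of the Col ecotype at growth stage 6.0. The plants grew at 22 °C under 8 h of light and 16 h of dark in compost and vermiculite, and a product the labels call Intercept was given when they were first watered. The labels describe both samples alike and do not say whether they came from separate plants, so there was 1 group, no contrast between conditions and no test, and the spread between the samples may be technical. The report gives each gene's signal on both arrays, whether it was detected, and how far the arrays agreed at its signal level.

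Tubulins are the building blocks of microtubules. An alpha and a beta tubulin form a dimer, dimers join end to end into filaments, and gamma tubulin starts new filaments. In plant cells that are laying down wall, microtubules lie under the plasma membrane and guide the cellulose synthase complexes, and in developing xylem vessels they mark where the bands of secondary wall are deposited. The hypocotyl of older plants thickens by secondary growth and forms much xylem, the wall development this study's title names.

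The gene table holds 15 numbered genes of the family, 6 alpha and 9 beta. The alpha genes TUA3 and TUA5 are annotated to 1 probe set together, so that its signal cannot be given to either gene. The other 6, TUA2, TUA4, TUB2, TUB3, TUB4 and TUB8, had no probe set named here and were not analysed. Of the 8 genes with no single-gene probe set in the annotation used, 4 lie directly beside another alpha or beta tubulin gene. In the gene table these are TUA3 beside TUA5 and TUB2 beside TUB3, while TUA2, TUA4, TUB4 and TUB8 have no such neighbour. None of the 7 genes that were measured has such a neighbour (0 of 7). Whether this position has to do with the lack of a named probe set was not tested. Another 8730 plant probe sets had no name in this annotation, and whether any of them targets the 8 genes was not examined. TUA6 has 2 RefSeq transcripts, which its signal does not separate, and each of the other 6 genes measured has 1.

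All 7 tubulin genes were detected in both samples, 2 of 2 alpha and 5 of 5 beta. A probe set counted as detected when its scaled signal was above the highest signal of the TrpnX controls, which target a bacterial transcript, and 85.2% of the 22746 plant probe sets passed this on both arrays. All 7 also passed a stricter limit, the brightest of all Bacillus controls, 12.6 in sample 2 and 13.1 in sample 1, which 70.0% of plant probe sets passed. The lowest tubulin signal, that of TUB1, was 10.5 times this stricter limit in sample 2 and 10.4 times in sample 1. Detection therefore did not separate alpha from beta tubulins. In whole tissue, fewer cells of a type and less RNA per cell cannot be told apart, and a signal is an average over the hypocotyl's cells. Tubulin genes are close in sequence, and probe sequences were not used here, so the share of a signal that came from another member's transcripts was not tested.

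**Figure D1:**
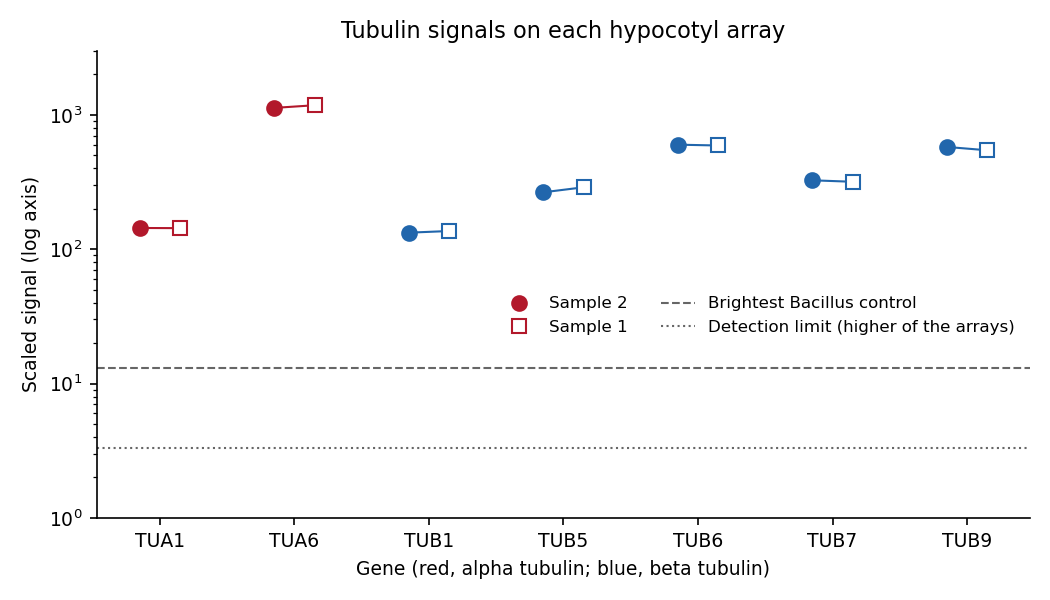
Scaled signal (log axis) of each tubulin gene, with sample 2 as a filled circle left of sample 1 as an open square. The dashed line is the brightest Bacillus control of either array (13.1) and the dotted line the detection limit (3.3, the higher of the arrays). Every point lies above both lines, and each gene's points are nearly level; heights of different genes are of different probes and are not to be compared.

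Of the alpha tubulins, TUA6 (AT4G14960), in which dominant mutations make organs twist, gave signals of 1126 in sample 2 and 1179 in sample 1. Its mean was 1153 ± 37.2 (SD, n = 2) and its log2 ratio of sample 2 over sample 1 was -0.07. It ranked 310 among the 22746 plant probe sets in sample 2 and 321 in sample 1, within the brightest 1.36% and 1.41%. TUA1 (AT1G64740), an alpha tubulin best known from pollen, had 143.8 in sample 2 and 143.4 in sample 1, with a mean of 143.6 ± 0.283 (SD, n = 2). These were the closest signals of any tubulin gene, with a log2 ratio of 0.00. TUA1 ranked 5094 in sample 2 and 5055 in sample 1, within the brightest 22.4% and 22.2%.

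The signal of TUA1 was read beside other genes typical of flowers, as a check of the tissue. ACT12, an actin known from pollen, had 1.1 in sample 2 and 1.3 in sample 1, below the limits of 3.3 and 2.5 on those arrays. The locus entered in the marker list for anthers, AT5G07230, which the gene table leaves unnamed, was below the limit on both arrays as well, at 1.2 and 2.2. ACT11, another actin of the reproductive class, was above the limit. It had 59.8 in sample 2 and 49.7 in sample 1. TUA1 was thus detected in samples where ACT12 and AT5G07230 were not and ACT11 was. The 2 actins came from the list of actins and not from the marker list. Which cells gave the TUA1 signal was not tested.

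Of the beta tubulins, TUB6 (AT5G12250) gave signals of 599.7 in sample 2 and 591 in sample 1, with a mean of 595 ± 5.94 (SD, n = 2). TUB6 is used as a reference gene in some studies of transcript level. Its log2 ratio was 0.02. TUB9 (AT4G20890) had 577 in sample 2 and 545 in sample 1, and the mean was 561 ± 22.6. Its log2 ratio, 0.08, was the highest of the 7 genes. TUB7 (AT2G29550) had 326 in sample 2 and 317 in sample 1, the mean being 322 ± 5.73 and the log2 ratio 0.04. These 3 beta tubulins were slightly brighter in sample 2, except that TUB6 had a log2 ratio of -0.0035 when the arrays were scaled to the same median.

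The remaining beta tubulins were slightly dimmer in sample 2. TUB5 (AT1G20010) had 265 in sample 2 and 289 in sample 1, with a mean of 277 ± 16.8 (SD, n = 2). Its log2 ratio of -0.12, a 1.09-fold difference, was the largest in size among the 7 genes. TUB1 (AT1G75780), which light is known to repress in seedlings, had 132.7 in sample 2 and 136.5 in sample 1, with a mean of 134.6 ± 2.69. Its log2 ratio was -0.04. The SD was between 0.197% of the mean for TUA1 and 6.08% for TUB5.

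The 7 log2 ratios had a median of 0.00 and an SD of 0.07, and 4 of them were above 0, although TUA1, TUA6 and TUB6 changed sign under at least 1 other scaling. Over all 19379 plant probe sets above the limit the median was 0.01 and the SD 0.39, and 51.8% were above 0. No tubulin gene differed by 2-fold, and 3.25% of the plant probe sets above the limit did. Of those 629 probe sets, 74 were above the brightest Bacillus controls, so the comparison was repeated at the tubulins' own signals. Among the 5067 plant probe sets with mean signals between those of TUB1 and TUA6, 13.2% differed by 1.2-fold or more, and 0 of 7 tubulin genes did. In the same range of signal, 59.0% of probe sets differed by no more than TUB5, the tubulin gene that differed most. For a single probe set, agreement this close was common at these signals. The SD of the log2 ratio over this range was 0.20. Whether the 7 genes together agreed more closely than other sets of 7 was not tested. The alpha genes had a median log2 ratio of -0.03 and the beta genes of 0.02, and with 2 genes in one group and overlapping values this difference was not tested.

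**Figure D2:**
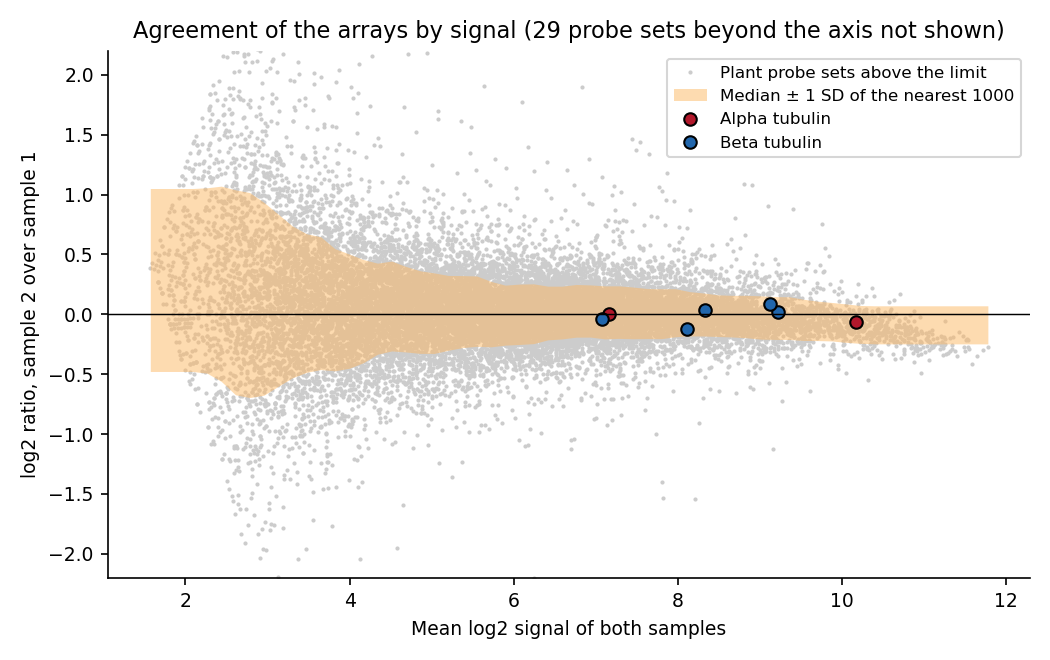
Each grey point is a plant probe set above the detection limit, with its mean log2 signal on the horizontal axis and its log2 ratio of sample 2 over sample 1 on the vertical axis. The band is the median ± 1 SD of the 1000 probe sets nearest in signal, and 29 probe sets lie beyond the axis. All 7 tubulin genes (red alpha, blue beta) lie inside the band, which narrows and drifts below 0 at bright signals.

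The spread between the arrays was then taken around each gene, from the 1000 plant probe sets nearest to it in mean signal. Their SD of the log2 ratio lay between 0.16 around TUA6 and 0.22 around TUB1. For all 7 tubulin genes the log2 ratio was smaller in size than this SD, and for 6 of 7 smaller than 0.5 times it, with TUB5 at 0.668 times. Measured from the median of the same neighbours, all 7 were again within 1 SD and 5 of 7 within 0.5 times it, with TUB5 at 0.693 and TUB9 at 0.634 times. The share of all probe sets within these limits was not counted. For scale, the log2 ratio of ACT11 was 0.997 times the SD around it, and 25.2% of its neighbours differed more. Lying within 1 SD was thus usual among the neighbours of ACT11. Their mean signals, from 49.5 to 65.5, were below that of every tubulin gene. Around TUA1, 97.0% of the neighbouring probe sets differed more between the arrays than TUA1 did. Around TUB5, 38.5% differed more than TUB5 did. Between these lay TUB6 with 86.5%, TUB1 with 80.1%, TUB7 with 78.4%, TUA6 with 67.2% and TUB9 with 52.1%.

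Bright probe sets were dimmer in sample 2 as a whole, and the 1000 nearest to TUA6 had a median log2 ratio of -0.08. TUA6 lay 0.02 above that median. TUB9 lay 0.11 and TUB6 0.05 above the medians of their own neighbours, which were -0.03 for both. TUB5, whose neighbours had a median of 0.00, lay below it by 0.13 on the log2 scale (-0.13). After quantile and loess normalization, which level such drifts with signal, the log2 ratio of TUA6 was 0.03 and 0.04.

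**Figure D3:**
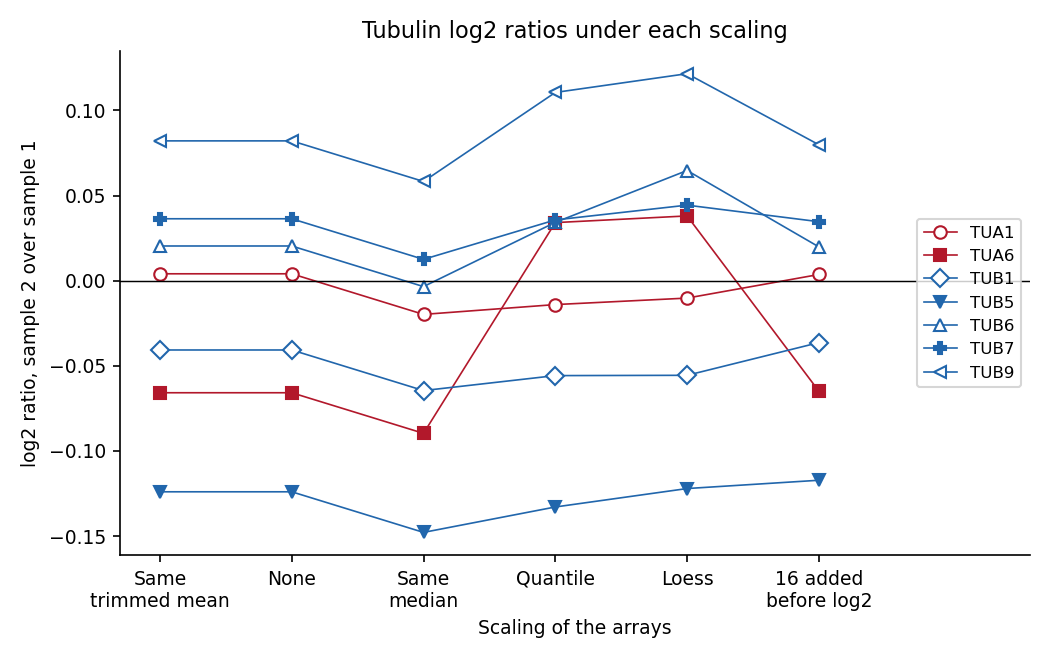
The log2 ratio of sample 2 over sample 1 of each tubulin gene (red alpha, blue beta) under 6 settings; lines join the values of 1 gene. TUB5 and TUB1 stay below 0 and TUB9 and TUB7 above 0 throughout, while TUA6, TUA1 and TUB6 cross 0 under at least 1 scaling.

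The proportions of the tubulin signals to each other follow from the log2 ratios of the single genes and are not a separate result. The order of the 7 signals was the same on both arrays, although it is an order of probe sets and not of transcript levels. The mean signals ran from 134.6 for TUB1 to 1153 for TUA6, and no gene differed by more than 1.09-fold. The order therefore had little room to change, outside close pairs such as TUB6 and TUB9 with means of 595 and 561. Of the 21 pairs of genes, TUB9 and TUB5 differed most in how they moved, by 0.21 on the log2 scale, so that the ratio of TUB9 to TUB5 was 1.15 times as large in sample 2. The probe set annotated to a pair of alpha tubulin genes, which was not counted with the 7, read 851 in sample 2 against 791 in sample 1. The log2 ratio, 0.11, was 0.640 times the SD around it. The median of its neighbours was -0.05, and the log2 ratio lay 0.16 above that median, 0.966 times the SD. The probe set was above the limit on both arrays.

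Genes that fold tubulin and build or organise microtubules were taken from lists of 46 loci, of which 7 had a single-gene probe set and all 7 were above the limit. POR, the tubulin folding cofactor C, helps to assemble the dimer and had 65.1 in sample 2 and 58.9 in sample 1, the log2 ratio being 0.14. PFI, cofactor E of the same pathway, was nearly level, with 36.8 in sample 2 and 36.9 in sample 1. The locus AT5G17410, entered in the list for the gamma tubulin complex and unnamed in the gene table, had 58.9 in sample 2 and 63.6 in sample 1. All 3 differed by less than the SD of the probe sets nearest in signal. Of those neighbours, 47.1% differed more around POR, 99.1% around PFI and 58.2% around AT5G17410. No single-gene probe set was named for the severing enzyme katanin, the plus end proteins EB1 or the cellulose synthase linker CSI1.

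TON1B, which organises the cortical array and the preprophase band, had 158 in sample 2 and 159 in sample 1. KINESIN-13A, a kinesin that takes microtubules apart, had 179 in sample 2 and 176 in sample 1. The log2 ratios of both lay within the range of the tubulin genes. SPR1, a protein of microtubule plus ends that keeps organ growth straight, had 512 in sample 2 and 575 in sample 1. Its log2 ratio of -0.17 was 0.937 times the SD of its neighbours from 0 and 0.772 times from their median. Of those neighbours, 26% differed more. ATMAP65-6, of a family that bundles microtubules, had 464 in sample 2 and 576 in sample 1, with -0.31 as its log2 ratio. It was the gene of the 7 that exceeded the SD of its neighbours, at 1.74 times from 0 and 1.59 times from their median. Of its neighbours, 7.20% differed more. The median of the 7 was -0.01, against 0.01 over all plant probe sets above the limit, and 2 were higher in sample 2 and 5 in sample 1. Of the 7, 4 differed by no more than TUB5. So did 40.4% of all plant probe sets above the limit and 59.0% of those with mean signals between TUB1 and TUA6. PFI, POR and AT5G17410 were dimmer than that range. None differed by 2-fold.

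Of 8 actin genes, the other filament family of the cytoskeleton, 2 had a single-gene probe set. ACT11 was above the limit with a log2 ratio of 0.27, 0.997 times the SD of its neighbours from 0 and 1.01 times from their median, and ACT12 was below it.

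**Figure D4:**
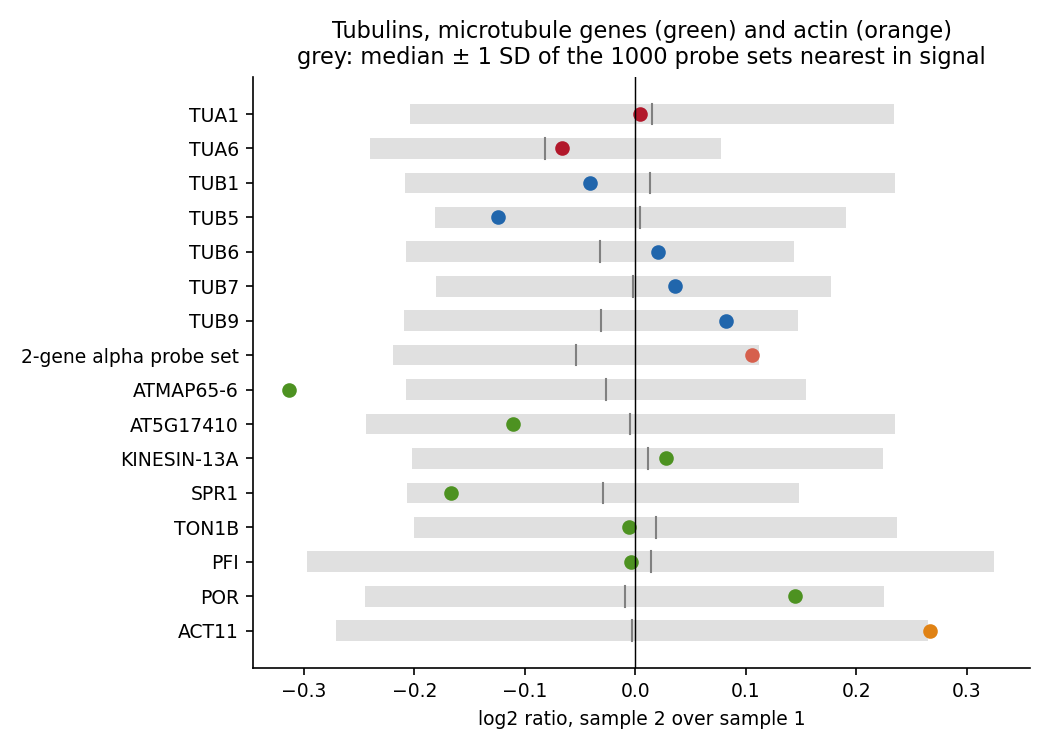
The log2 ratio of sample 2 over sample 1 (points) for the tubulin genes (red alpha, blue beta), the probe set of a pair of alpha genes, 7 microtubule genes (green) and ACT11 (orange). Grey bars show the median ± 1 SD of the 1000 probe sets nearest in signal; all tubulin points lie inside their bars, while ATMAP65-6 at -0.31 and, by a small margin, ACT11 at 0.27 lie outside.

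Both arrays had nearly the same median signal over all probe sets, 42.7 in sample 2 and 42.0 in sample 1, and the average background in the labels was 95.57 and 79.94. For the actin control, the 3′ probe set was 1.29 times as bright as the 5′ probe set in sample 2 and 1.34 times in sample 1 in one series of controls, and 6.55 and 8.45 times in the other. No marker defines a hypocotyl as a whole. Of 16 markers of its tissues and of other organs, 8 were measured and 7 detected, 5 of them higher in sample 2 and 2 in sample 1. The xylan genes GUT2 and IRX15 had log2 ratios of 0.22 and 0.33 and the phloem gene OPS 0.33. The photosynthesis genes RCA and LHCB4.1 had 0.05 and 0.09, and the root hair expansins EXPA7 and EXPA18 had -0.13 and -0.02. GUT2, IRX15, OPS and EXPA7 thus had log2 ratios larger in size than any tubulin gene, and RCA, LHCB4.1 and EXPA18 smaller than TUB5, at unlike signals. Relative to the SD of their own neighbours, GUT2, IRX15 and OPS were at 1.00, 1.31 and 1.11 times and TUB5 at 0.668 times. EXPA7 was at 0.261 times. The mean signals of EXPA7 and EXPA18, 14.2 and 15.1, were just above the brightest Bacillus controls. The part of these differences between the arrays in the tubulin values was not tested.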

How the data were processed

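Total RNA was labelled with biotin and hybridised to 1-colour ATH1 arrays, per the labels. The authors deposited linear intensities for 22810 probe sets, by software not given in the sources used. As the values show, their scaling set each array's mean to 100 once 2% was trimmed off both ends. Repeating it here gave factors close to 1. Counts leave out 64 control probe sets. The limit was the highest of 3 TrpnX signals, and 27 Bacillus controls gave the stricter one. The log2 ratio is sample 2 over sample 1 with nothing added.

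Of 14016 annotated probe sets, 13513 had 1 gene and 503 several; 13436 of the first matched the TAIR10.1 gene table by gene identifier, which gave current symbols. A further 8730 plant probe sets had no name here. Coordinates are not given, since no build is named for the values.

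The members and lists were chosen with earlier results of these data known. All members are named, as are list genes with a single-gene probe set, up to 4 per list, and every measured tissue marker. The measure against the nearest 1000 probe sets is a description. With 2 arrays, their number limits precision. The steps were tested on simulated data with the same noise SD at every signal and no drift with signal. How they handle a spread or drift that changes with signal, as in these arrays, was therefore not tested. Alternatives were other limits, scalings, folds, a pseudocount of 16 and each sample alone. Python 3.11.15, numpy 2.4.6, pandas 2.3.3, statsmodels 0.14.6 and matplotlib 3.10.9 were used.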

Additional observations from a re-analysis of the deposited data

How the results depend on the processing

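With either sample alone the counts above the TrpnX limit, 7 tubulin and 7 microtubule genes, are fixed by requiring both arrays and show nothing of stability. All 7 tubulin genes passed every other limit tried, up to a signal of 50 on both arrays, and 6 of 7 microtubule genes passed that highest one. The count of plant probe sets with a 2-fold difference, 629, moved with the limit: it was 2097 with no limit, 273 at 2 times the limit, 74 with the Bacillus limit, 27 at a signal of 50 and 34 after adding 16 before log2. It was 1948 at 1.5-fold and 162 at 3-fold. No tubulin gene reached 1.5-fold or 1.2-fold, thresholds chosen after seeing the data. The median tubulin log2 ratio lay between -0.03 and 0.04 under the alternatives, and all 35 recomputed ratios of single genes moved by less than the SD of their neighbours, between -0.15 and 0.12. Of these, 6 changed sign, for TUA1 (-0.02 with the same median, -0.01 after quantile and -0.01 after loess normalization), TUA6 (0.03 quantile, 0.04 loess) and TUB6 (-0.0035 with the same median). Measuring from the median of the neighbours, also chosen after seeing the data, left 5 and not 6 tubulin genes within 0.5 times the SD. Taking 200 neighbours, chosen after seeing the data, gave an SD of 0.13 around TUA6 and 0.23 around TUA1. No paired analysis was possible because the labels form 1 group. All 7 tubulin probe sets had plain names, so leaving out shared ones took away none. Signal over background limits what can be read of dim genes such as ACT12.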

Other observations

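A search of the gene table for further kinesin, tubulin and microtubule names, made after seeing the data, found 1 more gene with a single-gene probe set. KINESIN-12B, a kinesin of the phragmoplast, the microtubule array that builds the new wall between dividing cells, gave signals of 12.7 in sample 2 and 10.4 in sample 1. The first value was just above the brightest Bacillus control of its array, 12.6, and the second below that of the other array, 13.1, so that the gene was detected at the TrpnX limit and not at the stricter one. Its log2 ratio of 0.29 was 0.495 times the SD of its neighbours, 0.58, which shows how much wider the spread between the arrays was at dim signals than around any tubulin gene.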
